A study of Mus musculus with 4 samples.

Results

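The microglia genes described here were the 9 genes *Cx3cr1*, *P2ry12*, *Csf1r*, *C1qa*, *C1qb*, *C1qc*, *Tmem119*, *Trem2* and *Aif1*, picked by symbol among the 55573 genes counted. The RNA came from the basal telencephalon of E16 mouse embryos, where cells carrying the tdTomato reporter were enriched by fluorescence-activated sorting, and the labels name them *Hmx3*-derived interneurons. *Dnmt1* WT cells came from Hmx3-Cre/tdTomato embryos with wild-type *Dnmt1*, and *Dnmt1* KO cells from Hmx3-Cre/tdTomato embryos carrying Dnmt1 loxP2, in which Cre removes exons of the DNA methyltransferase gene *Dnmt1* and leaves a null allele. Both genotypes therefore carried the Cre driver and the tdTomato reporter, and the deletion was limited to cells with a history of *Hmx3* promoter activity. Each genotype had 2 libraries, made from 12 pooled WT and 6 pooled KO embryos. The sort used the tdTomato signal, doublet exclusion and a dead-cell dye, and the labels name no step against myeloid cells. The series text treats the libraries of a genotype as biological replicates, whereas the methods describe technical duplicates of pooled cells, so p-values measure the spread between these libraries, which may be technical.

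Microglia are the resident macrophages of the brain. They derive from yolk sac progenitors that enter the neural tube early in development, unlike neurons, astrocytes and oligodendrocytes, which are made by the neuroepithelium. They depend on the receptor CSF1R and its ligands CSF1 and IL-34, read neuronal signals through CX3CR1 and P2RY12, sense lipids through TREM2 and its partner TYROBP, and secrete C1q, the first component of the classical complement pathway. In embryonic brain they lie near progenitors and migrating neurons, where they clear dying cells.

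Library totals ran from 8075102 to 9995968 counts. Levels are given as counts per 1000000 (CPM) after scaling by the trimmed mean of M-values (TMM), which assumes that most genes do not differ between libraries. A count of 3, used as the floor for detection, was worth 0.294 to 0.372 CPM, and intervals on counts cover counting error only. The WT libraries differed from each other more than the KO libraries did, with a chi-square per degree of freedom over genes of 57.2 against 4.28. Mitochondrial ribosomal RNA took 8.66% of the counts of WT 1 against 1.51% to 2.32% in the others, and its TMM factor was 0.903 against 1.02 to 1.05. *Dnmt1* had 3103 and 4557 counts in WT 1 and WT 2 against 2383 and 2552 in KO 1 and KO 2, or 385 and 446 against 283 and 281 CPM. Both KO libraries were below both WT libraries, and the difference fell just short of the threshold (log2 fold change -0.56 ± 0.14 (SE), edgeR adjusted p = 0.0511). *Dnmt1* did pass with DESeq2 (adjusted p = 0.00843) and with limma-voom (adjusted p = 0.0358). The count covers the whole gene and does not isolate the removed exons.

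Of the 9 microglia genes, 8 had enough counts to be tested and *Aif1* had not. *Csf1r* rose in *Dnmt1* KO cells, and it alone passed an adjusted p of 0.05. No microglia gene was called lower. Over all 16832 genes tested, 7.33% were called higher and 0.57% lower in KO. Both KO libraries lay above both WT libraries for *Csf1r*, *Cx3cr1*, *C1qa*, *C1qb*, *Tmem119* and *Trem2*, that is for 6 of the 8 genes tested. That pattern held for 28.3% of all genes tested. An unadjusted p under 0.05 with a higher level in KO was found for *Csf1r*, *C1qb*, *Cx3cr1*, *Tmem119* and *C1qa*, 5 genes, against 14.6% of all genes. The log2 fold change was above 0 for 7 genes, against 47.6% of all genes, and its median was 0.97 over the microglia genes tested and -0.026 over all genes. *Tmem119* passed the filter on low counts only through its KO libraries, so its place among the genes tested already leaned to KO. In these bulk samples a change in the number of cells of a type and a change in RNA per cell cannot be told apart.

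**Figure D1:**
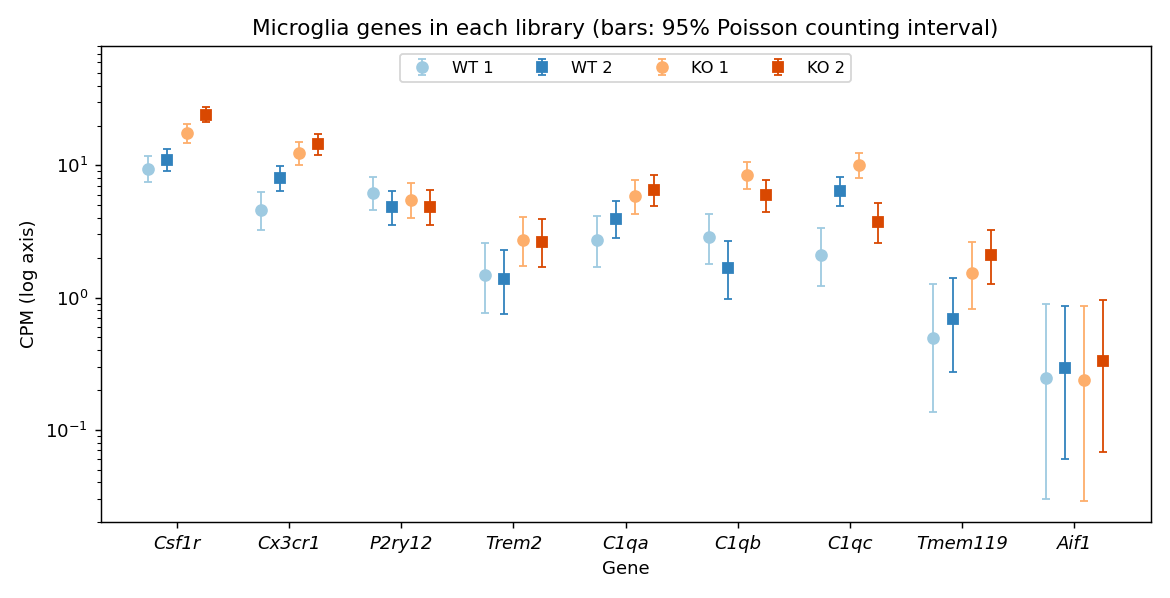
Level of each of the 9 microglia genes in each library, in CPM on a log axis. Points are libraries coloured by genotype and bars are the 95% counting intervals of single libraries. The KO points of *Csf1r*, *Cx3cr1*, *C1qa*, *C1qb*, *Tmem119* and *Trem2* lie above both WT points, whereas those of *P2ry12*, *C1qc* and *Aif1* do not.

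*Csf1r* encodes the receptor tyrosine kinase on which microglial survival and proliferation rest. It had 76 and 112 counts in WT against 148 and 220 in KO, or 9.43 and 11.0 CPM against 17.6 and 24.2 CPM. The groups did not overlap, and the lower KO library exceeded the higher WT library by more than the WT libraries differed from each other. The log2 fold change was 1.03 ± 0.25 (SE), with a 95% interval of 0.45 to 1.62 (edgeR adjusted p = 0.0474). This call rested on both KO libraries, since the edgeR adjusted p was 0.0889 without KO 1 and 0.499 without KO 2. With all libraries kept, *Csf1r* was called in 8 of 9 other settings, and the call was also lost with limma-voom (adjusted p = 0.0534). *Csf1r* lies on chromosome 18 (GRCm38, 61100598 to 61132149, plus strand), where 15.1% of its exonic bases overlap *Hmgxb3* on the opposite strand. The strand setting of the counting is not given in the sources used here. *Hmgxb3* itself had 528 and 798 counts in WT against 551 and 735 in KO (log2 fold change 0.03).

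The CSF1R ligands were also measured. *Il34*, which neurons supply in much of the brain, had 9 and 12 counts in WT against 38 and 56 in KO and rose (log2 fold change 2.21, edgeR adjusted p = 0.0232). That call too was lost without KO 1 (adjusted p = 0.0903) or without KO 2 (adjusted p = 0.253). *Csf1* had 58 and 99 counts in WT against 140 and 153 in KO, with no overlap, but did not pass (log2 fold change 0.98, edgeR adjusted p = 0.0627). *Csf1* did pass with library size only (adjusted p = 0.0300), upper quartile scaling (0.0492), no filter (0.0151) and the replicate block (0.0237). *Nrros*, which microglia need to activate TGF-beta, rose from 17 and 10 to 89 and 101 counts (log2 fold change 2.84, edgeR adjusted p = 0.00425). Of the 7 genes tested in the list of CSF1R ligands, fractalkine and TGF-beta signals, 2 were called higher and 0 lower, and the median log2 fold change was 0.98. The WT libraries alone would not have brought 4 of the 7 past the filter on low counts, among them *Il34* and *Nrros*, the genes called. The number called higher was 4 with library size only, upper quartile scaling, no filter or the replicate block, and 1 with at least 10 counts in every library. Summed over that list, the level was 217 and 156 CPM in WT and 161 and 171 CPM in KO. Most of that sum was the TGF-beta receptor gene *Tgfbr1*, at 185 and 115 CPM in WT and 108 and 100 CPM in KO (log2 fold change -0.52).

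*Cx3cr1*, on chromosome 9 (GRCm38, 119901616 to 120069879, minus strand), encodes the fractalkine receptor. It had 37 and 82 counts in WT against 104 and 131 in KO, or 4.59 and 8.03 CPM against 12.4 and 14.4 CPM. Both KO libraries were above both WT libraries, yet the WT libraries differed widely and the test was not passed (log2 fold change 1.07 ± 0.33 (SE), 95% interval 0.31 to 1.83, edgeR adjusted p = 0.0999). *Cx3cr1* did pass in 3 of 9 other settings, with library size only (adjusted p = 0.0448), no filter (0.0142) and the replicate block (0.0248), and without WT 2 (0.000184). Its neuronal ligand gene *Cx3cl1* had 158 and 270 counts in WT against 143 and 263 in KO. The ligand's counts thus overlapped between genotypes (edgeR adjusted p = 0.996).

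*P2ry12*, on chromosome 3 (59216272 to 59262871, minus strand), encodes the purinergic receptor by which resting microglia sense ADP. It had 50 and 49 counts in WT against 46 and 44 in KO, or 6.21 and 4.80 CPM against 5.47 and 4.85 CPM. The KO values lay inside the WT range. The log2 fold change was -0.09 ± 0.34 (SE) with a 95% interval of -0.88 to 0.70, which spans both a fall and a rise of over 1.5-fold. Among the microglia genes, only *Csf1r* had more counts than *P2ry12* in WT 1, and *Csf1r*, *Cx3cr1* and *C1qc* did in WT 2. In KO 1 *Csf1r*, *Cx3cr1*, *C1qa*, *C1qb* and *C1qc* had more. In KO 2 the same genes but *C1qc* had more.

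*Trem2*, on chromosome 17 (48346401 to 48354147, plus strand), encodes a lipid-sensing receptor of microglia. It had 12 and 14 counts in WT against 23 and 24 in KO, or 1.49 and 1.37 CPM against 2.73 and 2.64 CPM. The pairs were tight and did not overlap, but at these counts the 95% interval of the log2 fold change (0.91 ± 0.50 (SE)) ran from -0.26 to 2.07 (edgeR adjusted p = 0.330). *Tyrobp*, the adaptor through which TREM2 signals, had 11 and 18 counts in WT against 10 and 11 in KO (log2 fold change -0.39, edgeR adjusted p = 0.734). In the list of TREM2-TYROBP signalling, 0 of the 6 genes tested were called in either direction by edgeR, and 0 had an unadjusted p under 0.05. The median log2 fold change was 0.04. The highest mean CPM of the list, not corrected for length, was that of the adaptor gene *Sh3bp2*, at 326 and 544 counts in WT against 333 and 390 in KO. Next was the pleckstrin gene *Plek*, at 46 and 53 against 36 and 43.

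*Tmem119*, a transmembrane protein gene used as a marker of microglia against other macrophages, lies on chromosome 5 (113793729 to 113800516, minus strand). It had 4 and 7 counts in WT against 13 and 19 in KO. This was 0.497 and 0.686 CPM against 1.55 and 2.09 CPM. All 4 libraries were above the floor of 3 counts and the groups did not overlap, yet the change did not pass (log2 fold change 1.59 ± 0.63 (SE), 95% interval 0.14 to 3.03, edgeR adjusted p = 0.182). *Aif1*, which encodes the calcium-binding protein IBA1 used to stain microglia, lies on chromosome 17 (35170991 to 35176068, minus strand) and had 2 and 3 counts in WT against 2 and 3 in KO. No library exceeded the floor, so no fold is given for *Aif1*.

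The C1q chain genes *C1qa*, *C1qb* and *C1qc* each supply 1 chain of the C1q protein, and all lie within 18675 bases of chromosome 4 on the minus strand. In GRCm38 coordinates *C1qb* spans 136880129 to 136886187, *C1qc* 136889804 to 136893065 and *C1qa* 136895917 to 136898803. *C1qb* had 23 and 17 counts in WT against 71 and 54 in KO, or 2.86 and 1.67 CPM against 8.44 and 5.95 CPM. Its log2 fold change was 1.68 ± 0.43 (SE), with a 95% interval of 0.70 to 2.66, at an edgeR adjusted p of 0.0521. *C1qb* passed in 7 of 9 other settings, among them DESeq2 (adjusted p = 0.0463) and the replicate block (adjusted p = 0.0167), and its adjusted p was 0.403 without KO 1 and 0.0725 without KO 2. *C1qa* had 22 and 40 counts in WT against 49 and 59 in KO, and its groups did not overlap either (log2 fold change 0.88 ± 0.37 (SE), 95% interval 0.02 to 1.73, edgeR adjusted p = 0.209).

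*C1qc* behaved differently between libraries of the same genotype. It had 17 and 65 counts in WT against 85 and 34 in KO, or 2.11 and 6.37 CPM against 10.1 and 3.74 CPM. The 95% counting intervals of the WT libraries, 9.90 to 27.2 and 50.2 to 82.8 counts, did not overlap, nor did those of KO, 67.9 to 105 and 23.5 to 47.5 counts. KO 2 lay between the WT libraries. The log2 fold change was 0.68 ± 0.60 (SE) with a 95% interval of -0.71 to 2.06, and it became -0.19 without KO 1. Per kilobase of exon, *C1qc* made up 17.2% and 38.4% of the summed C1q level in WT and 28.1% and 14.2% in KO. *C1qb* made up 41.4% and 17.8% in WT and 41.7% and 40.0% in KO. The chain genes, which lie side by side, therefore did not keep a fixed ratio in these libraries.

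Upstream sequence is shown for *C1qb* and *Trem2*, genes whose genotypes did not overlap and that hold a short run of motif letters close to the start. They were picked for having both traits. *C1qc* and *Aif1* hold such letters too, but their genotypes overlapped. *Cx3cr1*, whose genotypes did not overlap, holds none. The sequences are the 250 bases before the start that RefSeq gives on GRCm38.p6, on the gene's own strand. They cover chr4:136886201-136886450 (minus) for *C1qb* and chr17:48346151-48346400 (plus) for *Trem2*. Capitals mark the letters GAGGAA, the core of the motif of the myeloid transcription factor PU.1, or the reverse complement TTCCTC.
*C1qb*: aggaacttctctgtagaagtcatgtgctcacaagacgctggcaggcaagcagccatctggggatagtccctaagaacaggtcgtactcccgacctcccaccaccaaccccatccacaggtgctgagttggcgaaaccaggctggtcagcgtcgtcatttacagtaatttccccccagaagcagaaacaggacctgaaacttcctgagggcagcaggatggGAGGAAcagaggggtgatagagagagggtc
*Trem2*: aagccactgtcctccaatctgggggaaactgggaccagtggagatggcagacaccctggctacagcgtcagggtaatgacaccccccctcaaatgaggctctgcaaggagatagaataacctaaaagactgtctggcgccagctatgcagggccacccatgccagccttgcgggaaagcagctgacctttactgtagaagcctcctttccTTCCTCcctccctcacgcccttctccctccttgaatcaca

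RefSeq windows of 300 bases, 250 before the start and 50 after it, were matched for 6 of the 9 microglia genes (*Cx3cr1*, *P2ry12*, *C1qb*, *C1qc*, *Trem2* and *Aif1*). RefSeq and GENCODE M21 place the start differently for all of these genes but *Trem2*, and the RefSeq starts of *Cx3cr1*, *C1qc* and *Aif1* lie inside the GENCODE spans given above. Searched on both strands, GAGGAA was in 4 of these 6 windows and in 28.3% of the 32851 windows of all genes. Its first base lay 30 bases before the start in *C1qb*, 193 in *C1qc*, 40 in *Trem2* and 7 in *Aif1*. The longer GAGGAAGT, which contains it, was in the *C1qc* window alone of the 6 and in 3.20% of all windows. As the substrate of DNMT1 is the CpG dinucleotide, CpGs were counted as well. The *Cx3cr1* window had 5, *P2ry12* 4, *C1qb* 6, *C1qc* 3, *Trem2* 5 and *Aif1* 1, against a median of 7 over all windows with quartiles of 3 and 20. The observed-to-expected CpG ratio was 0.0658 to 0.302 in the 6 windows and had a median of 0.384 over all. Letters in a window are a description and not evidence of binding or methylation.

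**Figure D2:**
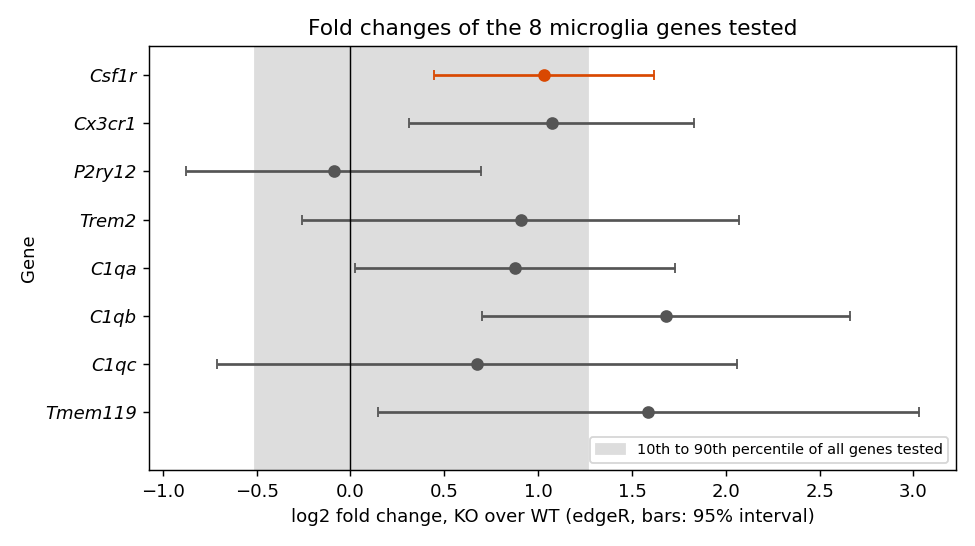
Log2 fold change of KO over WT for the 8 microglia genes tested, with bars for the 95% interval from the edgeR fit. The grey band spans the 10th to 90th percentile of all genes tested, -0.51 to 1.26, and orange marks an adjusted p under 0.05. The intervals of *P2ry12*, *Trem2* and *C1qc* include 0, and *Csf1r* alone is orange.

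Summed over all 9 genes, the counts were 243 and 389 in WT and 541 and 588 in KO. On the TMM scale the sum was 30.2 and 38.1 CPM in WT and 64.3 and 64.8 CPM in KO, or 34.1 ± 5.62 (SD, n = 2) against 64.5 ± 0.312 (SD, n = 2), a ratio of 1.89. The sums did not overlap, and the WT libraries were farther apart than the KO libraries. The make-up of the sum also moved. *P2ry12* supplied 20.6% and 12.6% of the summed counts in WT and 8.50% and 7.48% in KO. *Csf1r* supplied 31.3% and 28.8% in WT and 27.4% and 37.4% in KO, so its shares overlapped. Those of *Cx3cr1*, 15.2% and 21.1% in WT and 19.2% and 22.3% in KO, overlapped as well.

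Levels can be ordered between genes only per length, here per kilobase of all annotated exons, a divisor that a long rare transcript inflates. In KO, mean CPM per kilobase was 6.61 for *C1qb*, 5.92 for *C1qa*, 3.62 for *Csf1r*, 3.59 for *C1qc*, 2.97 for *Cx3cr1* and 2.03 for *P2ry12*. It was below 1 for the rest, at 0.786 for *Tmem119*, 0.544 for *Trem2* and 0.185 for *Aif1*. Among neighbours in that order the library ranges overlapped for *C1qb* and *C1qa*, for *Csf1r* and *C1qc*, and for *C1qc* and *Cx3cr1*. In WT the order was *C1qa* at 3.20, *C1qc* at 2.20, *P2ry12* at 2.16, *C1qb* at 2.08, *Csf1r* at 1.77 and *Cx3cr1* at 1.40 CPM per kilobase, where each neighbour's range overlapped the next. *Trem2* at 0.289 and *Tmem119* at 0.255 overlapped each other and lay below these, and *Aif1* was last at 0.177.

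**Figure D3:**
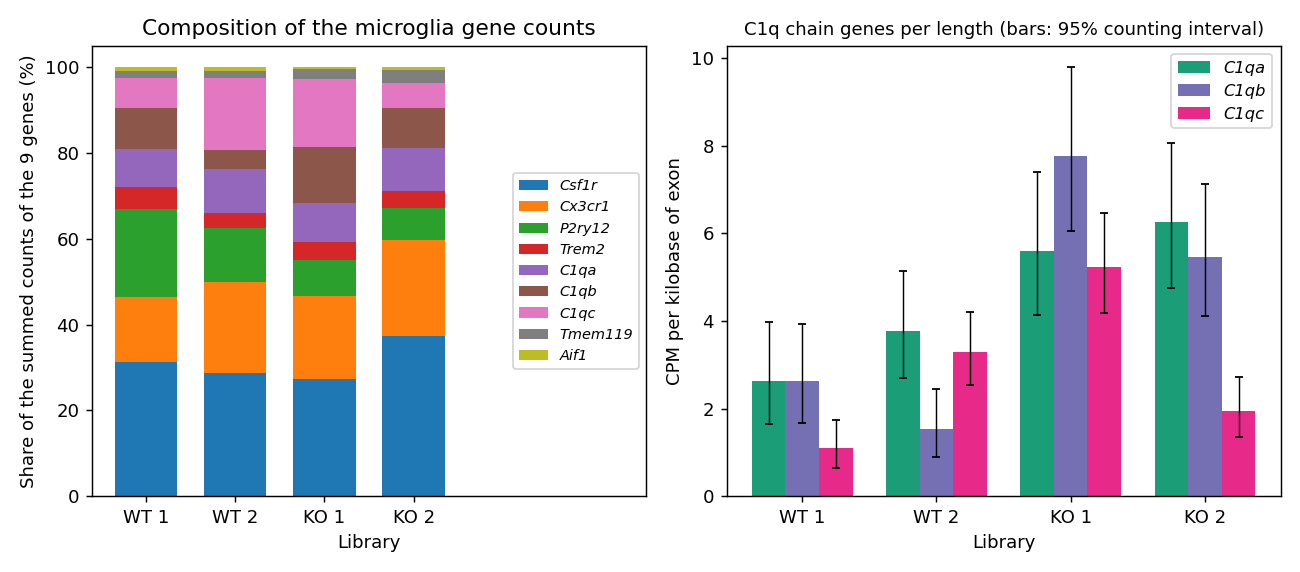
Left, share of each microglia gene in the summed counts of the 9 genes, in percent per library. Right, level of the C1q chain genes in CPM per kilobase per library, with 95% counting intervals of single libraries as bars. *P2ry12* takes a smaller share in both KO libraries, and the *C1qc* bar is lower in WT 1 than in WT 2 and lower in KO 2 than in KO 1.

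Other genes enriched in microglia were measured as well. Of 14 listed, 9 were tested, 3 were called higher and 0 lower, and the median log2 fold change was 1.00. Of these 9, *Gpr34*, *Slc2a5* and *Adgre1*, 3 in all, would not have passed the filter on their WT libraries alone, so the median leaned to KO. Summed over all 14 listed genes, the level was 45.3 and 44.9 CPM in WT and 90.7 and 92.6 CPM in KO. The largest part was *Sall1*, at 19.7 and 18.8 CPM in WT and 37.9 and 40.6 CPM in KO. *Sall1*, a transcription factor gene of microglia that neural progenitors also express, had 159 and 192 counts in WT against 319 and 369 in KO (log2 fold change 1.03, edgeR adjusted p = 0.00831). *Ctss*, encoding the protease cathepsin S, had 16 and 35 against 84 and 71 counts (log2 fold change 1.69, edgeR adjusted p = 0.0339). All 3 calls were lost without KO 1 and without KO 2, which left 0 genes of the list called.

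Among general leukocyte genes 12 of the 20 listed were tested, 1 was called higher and 0 lower. An unadjusted p under 0.05 was found for 3, of which *Lair1* and *Fcer1g* were higher in KO and *Lyz2* lower. The median log2 fold change was 0.22, over genes of which 5 would not have passed the filter on their WT libraries alone, *Fcer1g* among them. The sum over all 20 was 93.7 and 105 CPM in WT and 114 and 121 CPM in KO, so both KO sums lay above both WT sums. Most of each sum came from *Coro1a* and *Csf2ra*. *Coro1a* stood at 34.0 and 41.2 CPM in WT and 36.7 and 38.1 CPM in KO. *Csf2ra* stood at 39.0 and 39.5 against 41.8 and 43.9 CPM. *Lair1* supplied 1.12 and 0.980 CPM in WT and 9.87 and 10.6 CPM in KO. The gene called, which passed the filter on low counts only through KO, was *Lair1*, a collagen receptor gene, at 9 and 10 counts in WT against 83 and 96 in KO (log2 fold change 3.28, edgeR adjusted p = 0.00114). *Ptprc*, the pan-leukocyte CD45 gene, had 15 and 9 counts in WT against 15 and 4 in KO (log2 fold change -0.29, 95% interval -2.10 to 1.51). *Lyz2*, a lysozyme gene of macrophages that was singled out after its values were seen, went the other way at 17 and 26 counts in WT against 4 and 4 in KO (log2 fold change -2.32, edgeR adjusted p = 0.0632). Among the myeloid transcription factors 7 of 10 were tested, 0 were called higher and 1 lower, with a median of 0.47 that leaned to KO, since 3 of the 7 (*Cebpb*, *Irf5* and *Cebpa*) would not have passed the filter on their WT libraries alone. The gene that fell was *Mef2c*, which neurons also express, from 566 and 566 to 289 and 326 counts (log2 fold change -0.84, edgeR adjusted p = 0.0216), a call lost without either KO library (adjusted p = 0.212 without KO 1, 0.134 without KO 2). *Spi1*, which encodes PU.1, had 6 and 0 counts in WT against 3 and 23 in KO and was not tested.

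In the complement list outside C1q, 6 of 16 genes were tested, 1 was called higher and 0 lower, with a median log2 fold change of 0.91. *C4b*, encoding complement component C4, had 0 and 0 counts in WT against 64 and 90 in KO, at least 26.3-fold higher against a floor of 3 counts per library. The median was the same with *C4b* placed at that bound. *C4b* passed the filter on low counts only through KO, and 4 of the 6 genes tested would not have passed it on their WT libraries alone, so the list's count and median already leaned to KO. Its near-identical copy *C4a* had 28 and 32 counts in WT against 44 and 39 in KO, and reads could be split between them, so the *C4b* value is uncertain. *C3*, the central complement component, had 9 and 8 counts in WT against 14 and 11 in KO (edgeR adjusted p = 0.602).

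Markers of other cell types moved between the genotypes too, and their part in the results above was not tested. All 10 astrocyte genes were called higher, with summed levels of 277 and 262 CPM in WT and 3865 and 3668 CPM in KO. The gap junction gene *Gja1* of astrocytes, for example, rose from 41 and 28 to 2203 and 2244 counts. Of the 10 oligodendrocyte genes 7 were called higher (1099 and 1152 against 1789 and 1764 CPM), and of the 8 mural genes 6 (310 and 327 against 682 and 739 CPM). Examples are the myelin gene *Mobp*, at 7 and 7 counts in WT against 376 and 399 in KO, and the pericyte receptor gene *Pdgfrb*, at 76 and 132 against 708 and 742. In each of the astrocyte, oligodendrocyte and mural lists 2 genes, *Mobp* among them, would not have passed the filter on their WT libraries alone. Endothelial genes had 0 of 7 called by edgeR, 3 with an unadjusted p under 0.05 (*Flt1* higher, *Kdr* and *Cldn5* lower in KO), and sums of 21.4 and 23.2 against 24.5 and 27.5 CPM. Erythroid genes had 1 of 5 called lower (31.0 and 44.7 against 18.9 and 19.2 CPM) and choroid plexus genes 1 of 4 (53.7 and 70.0 against 7.97 and 9.36 CPM). These were the haemoglobin gene *Hbb-bs*, at 128 and 172 counts in WT against 60 and 57 in KO, a call lost without either KO library (adjusted p = 0.111 without KO 1, 0.163 without KO 2), and the transthyretin gene *Ttr*, at 329 and 564 against 8 and 10. Of the 10 neuron genes *Stmn2*, *Elavl4* and *Syt1*, 3 in all, were called lower (6386 and 5770 against 4335 and 4267 CPM), and of the 12 interneuron genes 0 were called by edgeR, 2 with an unadjusted p under 0.05 and lower in KO (1642 and 1511 against 1284 and 1413 CPM). All 3 neuron calls were lost without KO 1 (adjusted p = 0.116 for *Elavl4*, 0.222 for *Syt1*) and without KO 2 (0.284 and 0.226, with 0.352 for *Stmn2*), and that of *Stmn2* also with library size only (0.124), upper quartile scaling (0.0519) and at least 10 counts in every library (0.0625).

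Most markers of border macrophages and of blood leukocytes had few counts. Of 11 border macrophage genes 6 had at most 3 counts in every library, among them 5 with no count at all (*Lyve1*, *Pf4*, *Cbr2*, *Clec12a* and *Ms4a6c*), and the sum was 8.19 and 8.52 CPM in WT and 7.73 and 10.2 CPM in KO. The only border macrophage gene tested, *Stab1*, had 52 and 54 counts in WT against 45 and 81 in KO, and next to it *Mrc1* had 5 and 14 against 5 and 8. Monocyte and neutrophil genes summed to 1.61 and 2.16 CPM in WT and 0.951 and 0.551 CPM in KO, with *Ccr2*, *Plac8* and *Elane* at 0. Lymphocyte genes summed to 0.497 and 0.0980 CPM in WT and 1.66 and 0.881 CPM in KO, with *Cd3e*, *Cd3d* and *Ms4a1* among the genes at 0.

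**Figure D4:**
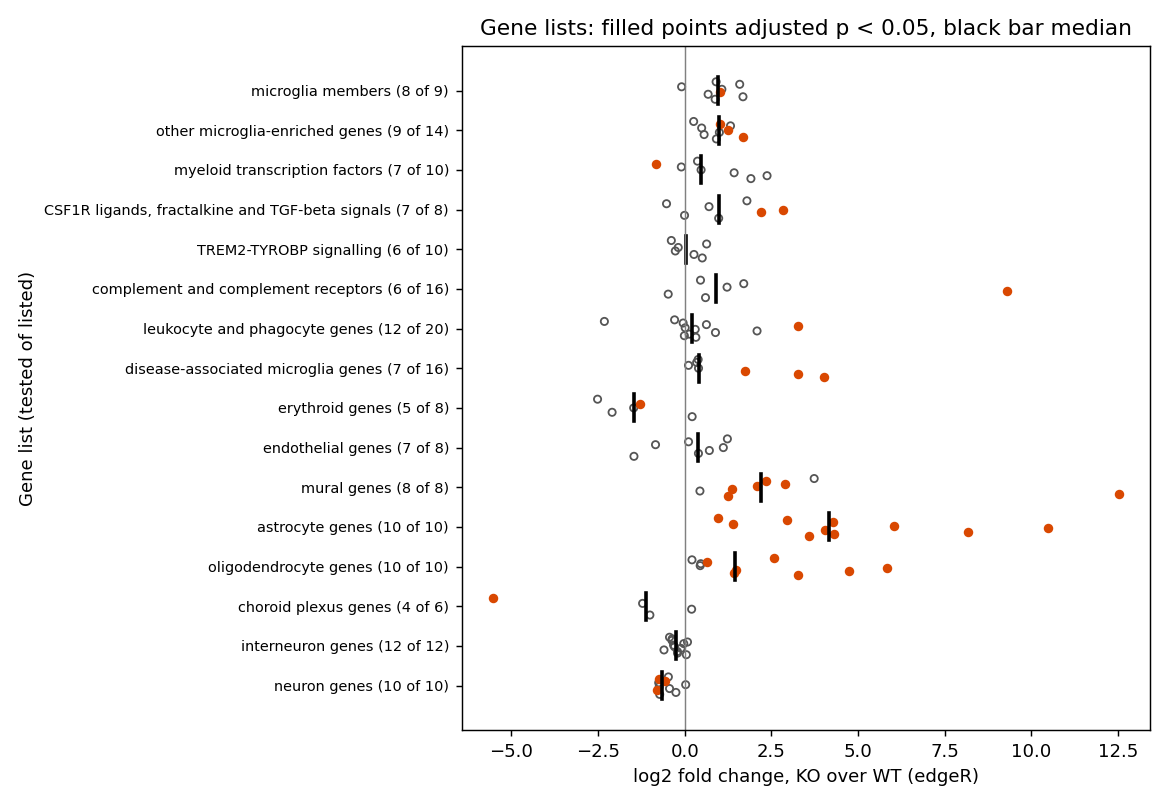
Log2 fold change of KO over WT for every gene tested in each list, with a bar at the median of the list. Points above 0 are higher in KO, and those of *C4b*, *Acta2* and *Gfap*, whose WT libraries held at most 3 counts, depend on the prior count of the fit. The microglia genes centre near 0.97, below the astrocyte list at 4.16 and above the neuron list at -0.65.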

How the data were processed

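RNA was sequenced from 2 libraries of each genotype. The authors deposited raw counts per Ensembl gene for each library. Per the labels, CASAVA 1.8.2, STAR 2.5.2a and featureCounts 1.5.0-p1 were used with the mm10/GRCm38 build. The annotation release and the strand setting are not given in the sources used here. Symbols were taken from GENCODE M21 by Ensembl ID (55480 of 55573 genes matched). The 9 microglia genes and all other lists were chosen with earlier results of these data known. Genes with low counts were removed with filterByExpr (minimum count 10, a cutoff of about 1.13 CPM in at least 2 libraries), which left 16832. KO was compared with WT by edgeR 4.0.16 quasi-likelihood tests with TMM scaling and Benjamini-Hochberg adjustment over all genes tested, on genotype alone. SEs are the fold change divided by the square root of F, and intervals are 95%. CPM values were computed here. Named genes were the 9 members, *Dnmt1*, *Ptprc*, *Tyrobp*, *Spi1*, *Csf1*, *Il34*, *Cx3cl1* and *C3*, and the 5 genes nearest in profile. Each other list added up to 4 called genes by size of change, or the 2 with the highest mean CPM where none was called. Of the genes called in lists of other cell types, some are given as counts only. Alternatives used DESeq2 1.42.0, limma 3.58.1, other scalings and filters, a replicate block and each library left out. Protein sequences were not used here, and some genes that the rule names are not reported here.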

Additional observations from a re-analysis of the deposited data

How the results depend on the processing

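Counts were low, as 8 of the 9 microglia genes had a library under 50 counts. Libraries of a genotype also differed beyond their 95% counting intervals for some genes. This held for *C1qc* in both genotypes and for *Cx3cr1* in WT (3.23 to 6.33 against 6.39 to 9.97 CPM). It also held for *Csf1r* in KO (14.9 to 20.7 against 21.1 to 27.7 CPM). The number of microglia genes called higher, 1, was 2 with DESeq2, 0 with limma-voom, 2 with DESeq2 size factors, 3 with library size only, 2 with upper quartile scaling, 3 without a filter on low counts, 2 with at least 10 counts in every library and 3 at an adjusted p under 0.1. Leaving out each library in turn gave 0 to 5 (2 without WT 1, 5 without WT 2, 0 without KO 1, 0 without KO 2), where the lone library of a genotype is assumed to vary like the others. Over all genes the number called, 1329, was 2363 without a filter, 883 with at least 10 counts in every library and 726 to 4299 with a library left out. The summed level was moved in KO 1 to 67.3 CPM by library size, 65.1 by upper quartile and 67.2 without mitochondrial genes. In KO 2 it was moved to 64.3 by DESeq2 size factors, and to 67.0, 65.8 and 67.7 in the order above. The sum of WT 1, 30.2 CPM, became 27.2 with library size only and 31.5 without mitochondrial genes. That of WT 2, 38.1 CPM, became 39.0 and 39.8. The log2 fold change of *P2ry12* became 0.029 with library size only and ranged from -0.27 to 0.096 with a library left out. With a library left out the range was -0.19 to 1.70 for *C1qc*, -0.44 to 0.33 for *Cx3cl1*, -0.37 to 0.029 for *Sh3bp2*, -1.59 to 0.40 for *Ptprc*, -0.12 to 0.61 for *Stab1* and -0.13 to 0.17 for *Hmgxb3*. *Cx3cl1* became 0.092 with library size only, 0.033 with upper quartile scaling and 0.031 with at least 10 counts in every library. The cause of these changes was not tested.

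The titles number the libraries within each genotype, but no source says that a number marks a shared litter. Same-numbered libraries deviated together with a correlation of 0.108 across genes. With the replicate block, 3 microglia genes were called higher (*Csf1r*, *C1qb* and *Cx3cr1*, the last at an adjusted p of 0.0248) and 2244 genes in all.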

Other observations

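Genes of the disease-associated microglia signature, seen in microglia around damage and shared with other glia, were also measured. Of 16 listed, 7 were tested and 3 were called higher, with a median log2 fold change of 0.40 and summed levels of 214 and 247 CPM in WT and 678 and 716 CPM in KO. *Apoe*, the lipid carrier that astrocytes also make in quantity, had 167 and 299 counts in WT against 3354 and 3799 in KO (log2 fold change 4.02, edgeR adjusted p = 1.2e-05). It supplied most of the summed level in KO, at 20.7 and 29.3 CPM in WT and 399 and 418 CPM in KO. *Axl*, a receptor for apoptotic cells, had 46 and 41 against 397 and 421 counts (log2 fold change 3.28, edgeR adjusted p = 7.2e-05). *Cd63*, a tetraspanin gene of late endosomes, had 30 and 30 against 78 and 116 counts (log2 fold change 1.73, edgeR adjusted p = 0.0169), a call lost without KO 2 (adjusted p = 0.159). The other genes tested were not called, with log2 fold changes of 0.40 for *Cd9*, 0.34 for *Ctsd*, 0.39 for *Lpl* and 0.11 for *Ctsb*. *Cst7*, *Clec7a* and *Ccl4* had at most 3 counts in every library. The markers of astrocytes rose in the same libraries, and their part in the values of this list was not tested.

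Among the microglia genes, the profile over the 4 libraries closest to their median profile was that of *C1qa*, at a root mean square distance of 0.0727 in log2 CPM, and the farthest was that of *C1qc*, at 0.696. Genes outside the list with close profiles were *AI849053* at 0.0345, *Csf1* at 0.0391, *Mospd3* at 0.0465 and *Arhgap23* at 0.0483. With 4 libraries such distances describe these samples only.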
